A study of Mus musculus with 16 samples.

Results

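CD8+ T cells in the spleens of mice that carried an accepted kidney allograft were compared between 3 weeks and 1 week after transplantation. The recipients were male C57BL/6J (B6) mice with no genetic alteration, each given a kidney of the fully mismatched strain DBA/2J, and the age of the mice was not given in the sources used here. At each time viable CD45+ (leukocyte) cells were sorted from spleen and sequenced with a 10x Genomics 3′ kit, which counts each captured transcript by a unique molecular identifier (UMI), and the submitters deposited the cells they called CD8+ T cells as 1 count matrix per tissue and time. The spleen matrices held 11913 cells at 1 week and 5891 cells at 3 weeks, with barcodes that carry 3 and 5 library tags. The study states that each mouse was a separate sample and gives 3 and 5 replicates, so a tag was taken as 1 mouse, although the labels do not say so.

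A cell was kept when it had at least 1 UMI of Cd8a or Cd8b1, the chains of the CD8 coreceptor, and no UMI of Cd4, Cd79a or Lyz2, which belong to helper T cells, B cells and myeloid cells. Of 17804 spleen cells 6393 were kept. The 3 libraries of 1 week kept 1264, 1367 and 1438 cells, and the 5 libraries of 3 weeks kept 487, 491, 542, 352 and 452 cells. The same rule kept 48105 of 72639 cells over all CD8+ T cell matrices of the series. UMIs were summed over the kept cells of each library, and levels are given as CPM (UMIs of the gene per 1000000 UMIs of the sum), so the replicate is the mouse and not the cell.

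A CD8+ T cell that has not met its antigen recirculates through spleen and lymph nodes and is kept quiescent by transcription factors such as Lef1 and Tcf7. After contact with antigen and costimulation it divides, makes granzymes, perforin and interferon-gamma, and takes up integrins, S100 proteins and galectins that go with migration into tissue. Most effector cells then die, a minority stays as memory cells, and prolonged antigen brings inhibitory receptors such as PD-1 and LAG-3 to the surface. The spleen samples the circulating part of this response, whereas the graft holds the cells that have entered the tissue.

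The deposited spleen matrices were not pure by their RNA. Cells with UMIs of either CD8 chain were 41.9% to 49.2% of the matrix at 1 week and 44.0% to 51.8% at 3 weeks, against 95.0% to 97.6% in the 5 libraries of naive B6 spleen CD8+ T cells. A Cd79a UMI was found in 14.5% to 22.1% of matrix cells at 1 week and in 7.61% to 13.4% at 3 weeks, and a Cd4 UMI in 10.7% to 14.9% and 19.1% to 24.8%. Among the kept cells the T cell genes Cd3d (1160.04 ± 70.1 CPM at 1 week and 843 ± 56.8 CPM at 3 weeks), Cd3e, Trac and Trbc2 were found in all 8 libraries. The kept cells held 2941512 to 5589330 UMIs per library at 1 week (median cell 1991 to 3477 UMIs) and 1655201 to 2598832 UMIs at 3 weeks (median cell 3501 to 5260 UMIs). The share of UMIs on mitochondrially encoded genes was 5.42% to 6.07% at 1 week and 3.72% to 4.78% at 3 weeks, and that on the nuclear RNA Malat1 was 0.995% to 1.32% and 1.86% to 2.25%. Of the 6393 kept cells, 4 had a barcode that occurs in more than 1 library. In a principal component analysis of the 8 sums the first component took 58.8% of the variance and separated the times, and the correlation of log2 CPM was 0.980 to 0.985 within 1 week, 0.972 to 0.976 within 3 weeks and 0.922 to 0.942 between them. Library preparation and sequencing runs are not labelled, so time and run cannot be told apart.

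Markers of other cell types were low but moved with time. B cell markers summed to 612 to 1081 CPM at 1 week and 478 to 876 CPM at 3 weeks, and 1 of 13 passed the test described next, Igkc (log2 change −1.57, edgeR adjusted p = 1.1e-05). Sums of 13 myeloid markers were 139 to 177 CPM and 73 to 143 CPM, and 2 of the 5 tested were lower at 3 weeks (Ifitm3 and Cst3). The NK cell list summed to 206 to 292 CPM and 42 to 149 CPM and includes Gzma, which CD8+ T cells also make, and the genes of CD4 T cells to 93 to 113 CPM and 59 to 74 CPM. In those lists Gzma and Tyrobp of 5 tested, and Ctla4, Izumo1r and Tnfrsf4 of 5 tested, were lower at 3 weeks. Of 3 gamma-delta T cell genes tested none passed, Jchain of the plasma cell list was lower (log2 change −1.49, edgeR adjusted p = 1.6e-04), and markers of red cells, platelets and kidney tubules were at 5 CPM or less in sum in every library. Under a stricter cell rule, which also left out cells with a UMI of Cd79b, Ms4a1, Cd74, Fcer1g, Tyrobp, Ncr1, Foxp3, Trdc or the hemoglobin genes Hbb-bs and Hba-a1, 47% of 7825 genes passed, 2546 higher and 1135 lower at 3 weeks. Of the lists described below, 20 of 29 memory and effector genes, 12 of 17 cell division genes and 5 of 8 cytotoxic genes were lower under that rule, and 2, 1 and 1 were higher. The part of these cells in the results was not tested further.

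The gene-wise comparison covered 8991 genes, tested by edgeR's quasi-likelihood method, with p-values adjusted after Benjamini and Hochberg over all of them, and every adjusted p below is from this fit unless another is named. At an adjusted p under 0.05, 2977 genes (33.1%) were higher and 1363 (15.2%) were lower at 3 weeks, in all 48.3% of the genes. The CPM of the groups did not overlap for 42.9% of the genes, 29.1% with the 3-week libraries above and 13.8% with them below. The median log2 change over all genes was 0.21. With TMM factors, which centre most genes on no change, the median was 0.02 and the split was 1823 higher and 2066 lower (46.9% of the calls higher, against 68.6%). A change near 0.2 is therefore at the level of the ordinary gene, and each direction below is relative to the library total. Because cells were deeper at 3 weeks, the comparison was also made within cells of 2000 to 4000 UMIs, where 44% of 7080 genes passed, 33.8% higher and 10.2% lower, with a median of 0.31. Those were 1022, 639 and 909 cells in the 1-week libraries and 85, 213, 349, 107 and 249 cells in the 3-week libraries, so calls there rest on fewer cells. The window also takes unlike parts of the libraries. It lies above the median cell of replicate 2 of 1 week (1991 UMIs) and below that of replicate 1 of 3 weeks (5260 UMIs). Cells of another kind may thus be left out at each time, and the part of this in the changes there was not tested. In sums over cells, fewer cells of a type and less RNA per cell cannot be told apart. Lists of genes that describe CD8+ T cell states and cell housekeeping are counted against these backgrounds below, and 16 of them are shown in the plot of the lists.

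**Figure D1:**
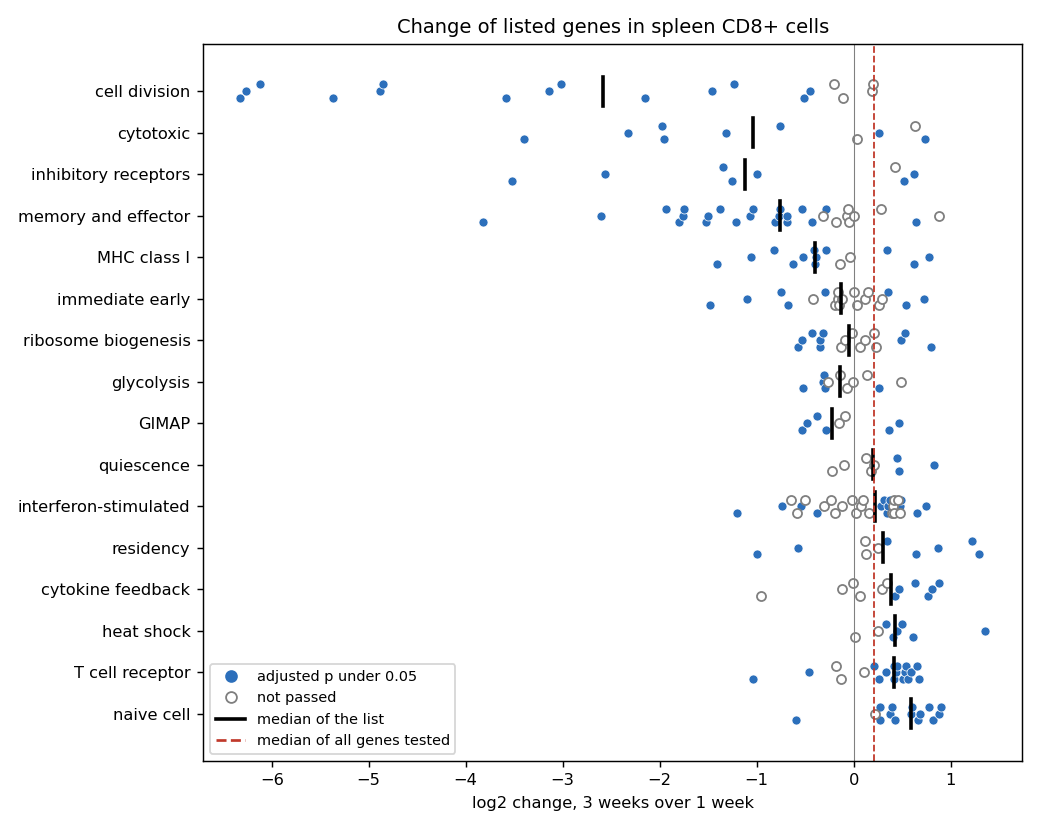
Log2 change from 1 week to 3 weeks (x axis) of every tested member (points) of 16 gene lists (rows), with the list's median as a bar and a dashed line at the median of all tested genes (0.21). Filled points passed the edgeR test at an adjusted p under 0.05 and open points did not. The lists of cell division (median −2.58), inhibitory receptors (−1.12), cytotoxicity (−1.04) and memory and effector genes (−0.76) lie left of the line, and that of naive and homing genes (0.59) lies right of it.

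Memory and effector genes were lower at 3 weeks. Of 29 tested members of the list (30 listed), 20 were lower and 1 was higher, against 15.2% and 33.1% of all genes, and the median log2 change was −0.76 against 0.21. With TMM factors it was 21 lower and 1 higher, against 23% and 20.3% of all genes. Without replicate 3 of 1 week, the library with the most Mki67 UMIs, it was 18 lower and 2 higher.

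S100a4 and S100a6 had the largest falls of the list. S100a4 (chr3:90603771-90606045, GRCm38), a calcium-binding protein of motile cells, was at 316, 480.04 and 616 CPM at 1 week and 43.5, 29.8, 22.2, 45.3 and 24.7 CPM at 3 weeks (log2 change −3.82, SE 0.186, edgeR adjusted p = 3.0e-12). Every 3-week library lay far below every 1-week library. S100a6, of the same family, was at 390.1, 651 and 1188 CPM at 1 week and 144, 109, 93.4, 134 and 134 CPM at 3 weeks (log2 change −2.60, SE 0.212, edgeR adjusted p = 7.4e-09), and naive spleen had 42.8 ± 9.96 CPM (SD, n = 5) by the same cell rule. Itgb1 (chr8:128685654-128733200), the integrin beta-1 chain that pairs with several alpha chains for adhesion to matrix and VCAM-1, was at 201, 277 and 263 CPM at 1 week and 77.3, 61.9, 74.3, 84 and 68.9 CPM at 3 weeks (log2 change −1.75, SE 0.109, edgeR adjusted p = 1.6e-10). The groups did not overlap for any of these 3 genes, although S100a6 ranged widely within 1 week.

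Lgals3 (chr14:47367751-47386160), galectin-3, is a sugar-binding protein made by activated T cells and by macrophages. It was at 146, 242 and 359.8 CPM at 1 week and 13.1, 8.98, 8.25, 12.1 and 4.02 CPM at 3 weeks (log2 change −4.72, SE 0.249, edgeR adjusted p = 1.2e-11). Within cells of 2000 to 4000 UMIs the falls were smaller, with log2 changes of −3.05 for Lgals3, −2.31 for S100a4, −1.58 for S100a6 and −1.33 for Itgb1, and each passed. Lgals1, galectin-1, had 677 ± 344 CPM at 1 week and 196 ± 36 CPM at 3 weeks (log2 change −1.80, SE 0.191, edgeR adjusted p = 1.7e-07), and Anxa2, annexin A2 of the cell membrane, had 109.8 ± 62.8 CPM at 1 week and 33.2 ± 5.36 CPM at 3 weeks (log2 change −1.76, SE 0.234, edgeR adjusted p = 3.1e-06; −1.15 without replicate 3 of 1 week). Cd48, an adhesion molecule and the ligand of CD244, fell from 229 ± 50.5 to 80.8 ± 12.1 CPM (log2 change −1.50, SE 0.125, edgeR adjusted p = 9.2e-09). The groups did not overlap for these 4 genes. In naive spleen Lgals3 had 1.9 ± 0.83 CPM and Lgals1 127 ± 16.6 CPM, below both times.

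Gzmk, another granzyme, had 45, 34 and 80 UMIs at 1 week and 19, 1, 4, 6 and 4 UMIs at 3 weeks (log2 change −1.93, SE 0.347, edgeR adjusted p = 1.0e-04; −2.65 without replicate 1 of 3 weeks), with no overlap in CPM, and is named after its values were seen. Ccl5, the chemokine RANTES stored by memory CD8+ T cells, had 2492, 3926 and 2508 CPM at 1 week and 2391, 1897, 1521, 1678 and 1754 CPM at 3 weeks (log2 change −0.69, SE 0.131, edgeR adjusted p = 1.9e-04). Cxcr3, the receptor for chemokines induced by interferon-gamma, had 43.5, 61.2 and 60.8 CPM at 1 week and 33.5, 29.8, 29.4, 33.2 and 31 CPM at 3 weeks (log2 change −0.81, SE 0.127, edgeR adjusted p = 2.2e-05). The 3-week libraries were lower for both genes, but within cells of 2000 to 4000 UMIs the change of Ccl5 was 0.07 (edgeR adjusted p = 0.913) and that of Cxcr3 −1.20 (edgeR adjusted p = 6.5e-04). Ly6c2, a surface protein of memory and effector CD8+ T cells whose reads may be split with its close paralog Ly6c1, had 475 ± 88.8 CPM at 1 week and 453 ± 38.6 CPM at 3 weeks and did not pass (log2 change −0.07, edgeR adjusted p = 0.588), although with TMM factors it was lower (−0.26, edgeR adjusted p = 0.0466), as it was within cells of 2000 to 4000 UMIs (−0.95, edgeR adjusted p = 3.5e-04). Cd44 (log2 change −0.05, edgeR adjusted p = 0.836) and Id2 (log2 change 0.00, edgeR adjusted p = 0.999) also did not pass. Eomes, a transcription factor of memory cells that supports the response to interleukin-15, was the 1 member that rose, from 36 ± 4.8 to 55.4 ± 13 CPM (log2 change 0.65, SE 0.152, edgeR adjusted p = 0.00138), a call that was lost within cells of 2000 to 4000 UMIs (0.31, edgeR adjusted p = 0.432).

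Of 10 tested genes of killing and of effector cytokines (11 listed) 6 were lower and 2 were higher at 3 weeks. The shares of all genes were 15.2% and 33.1%. Within cells of 2000 to 4000 UMIs 3 of 8 were lower and 1 was higher, against 10.2% and 33.8% of the genes tested there. Gzmb (chr14:56258838-56262260), the granzyme that cleaves caspases in the target cell, was at 37.5, 48.6 and 109.9 CPM at 1 week and 9.24, 10.4, 2.06, 4.83 and 3.44 CPM at 3 weeks (log2 change −3.40, SE 0.341, edgeR adjusted p = 8.6e-08). Replicate 3 of 1 week had the highest level, but the other 1-week libraries were still above all 3-week libraries, and without replicate 3 the log2 change was −2.75 (edgeR adjusted p = 2.6e-09). Within cells of 2000 to 4000 UMIs it was −1.36 (edgeR adjusted p = 0.0223). Gzma, a granzyme of another specificity, was at 162, 178 and 229 CPM at 1 week and 18.1, 91.7, 7.22, 50.8 and 23.5 CPM at 3 weeks (log2 change −2.32, SE 0.325, edgeR adjusted p = 5.9e-06; −3.00 without replicate 2 of 3 weeks), and within cells of 2000 to 4000 UMIs its change was −0.48 (edgeR adjusted p = 0.36). Ifng, interferon-gamma, was at 28.7, 36 and 25 CPM at 1 week and 6.93, 8.03, 10.8, 6.65 and 4.59 CPM at 3 weeks (log2 change −1.98, SE 0.201, edgeR adjusted p = 1.1e-07), with no overlap between the groups. Srgn, serglycin, the proteoglycan on which granzymes are packed, fell from 522 ± 31.5 to 309 ± 17.2 CPM (log2 change −0.76, edgeR adjusted p = 1.5e-07). Prf1, the pore-forming perforin, was higher, with 32.3, 41.1 and 33.1 CPM at 1 week and 57.7, 58.1, 58.8, 48.3 and 70.6 CPM at 3 weeks (log2 change 0.74, SE 0.124, edgeR adjusted p = 4.8e-05), and Lamp1 was higher by a log2 change of 0.26 (edgeR adjusted p = 0.0404), which is near the median of all genes and was 0.07 with TMM factors. Fasl (log2 change 0.63, edgeR adjusted p = 0.077) did not pass, but did without replicate 3 of 1 week (1.18, edgeR adjusted p = 0.00435), and Serpinb9, an inhibitor of granzyme B, did not (log2 change 0.04, edgeR adjusted p = 0.898).

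Of 8 tested inhibitory receptors and exhaustion-linked factors (13 listed, the others too low to test) 5 were lower and 2 higher. Over all genes the shares were 15.2% and 33.1%. With intron length taken out (explained below) 5 were lower and none higher, against 21.1% and 18% of all genes. Within cells of 2000 to 4000 UMIs, where Lag3 and Pdcd1 were too low to test, 2 of 5 were lower and 1 higher. In that setting 10.2% and 33.8% of all genes were. The median of those 5 was 0.39, which is not over the same members as the −1.12 of all 8. Lag3 (chr6:124904361-124911705), which binds MHC class II, had 37, 35 and 75 UMIs at 1 week and 2, 2, 2, 1 and 3 UMIs at 3 weeks (log2 change −3.52, SE 0.329, edgeR adjusted p = 3.5e-08). In CPM that was 10.1, 11.9 and 13.4 CPM at 1 week and 0.77, 0.945, 1.03, 0.604 and 1.72 CPM at 3 weeks. Pdcd1 (chr1:94038305-94052553), which encodes PD-1, had 17, 20 and 62 UMIs at 1 week and 5, 1, 3, 0 and 4 UMIs at 3 weeks, or 7.51 ± 3.28 CPM at 1 week and 1.25 ± 0.975 CPM at 3 weeks (log2 change −2.56, SE 0.442, edgeR adjusted p = 6.6e-05). With 5 UMIs or fewer in each 3-week library the size of these folds is loose, although the groups did not overlap for either gene. Replicate 3 of 1 week held most of the 1-week Pdcd1 UMIs, and without it Pdcd1 was too low to test. It was also too low to test under the stricter cell rule and in cells without division genes. Cd160 was lower, from 49.3 ± 9.83 to 25 ± 5.33 CPM (log2 change −0.99, edgeR adjusted p = 1.9e-05).

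Tox, a nuclear factor linked to T cell exhaustion, and Btla went the other way. Tox was at 44.6, 44.9 and 43.3 CPM at 1 week and 79.7, 48.7, 62.4, 66.5 and 56.8 CPM at 3 weeks (log2 change 0.52, SE 0.127, edgeR adjusted p = 0.00198). Its introns span 298 kb, and with the shift of genes of like intron length taken out its change was 0.02 (edgeR adjusted p = 0.932). Btla, which binds HVEM, rose from 15.7 ± 3.52 to 24 ± 3.08 CPM (log2 change 0.62, edgeR adjusted p = 0.00464).

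Of 6 tested genes named for regulatory CD8+ T cells (8 listed) 2 were lower and none was higher. The shares of all genes were 15.2% and 33.1%. Fgl2 (chr5:21372642-21378374), a secreted fibrinogen-like protein that binds FcγRIIB, had 14, 18 and 55 UMIs at 1 week and 5, 8, 0, 4 and 9 UMIs at 3 weeks, or 6.6 ± 3.03 CPM at 1 week and 2.66 ± 1.95 CPM at 3 weeks (log2 change −1.39, SE 0.435, edgeR adjusted p = 0.0112). The call rests on replicate 3 of 1 week, without which the log2 change was −0.90 (edgeR adjusted p = 0.132). Il2rb, which encodes CD122, the receptor chain shared by interleukin-2 and interleukin-15, was at 109.7, 163 and 191 CPM at 1 week and 208, 173, 193, 161 and 208 CPM at 3 weeks and did not pass (log2 change 0.28, SE 0.13, edgeR adjusted p = 0.0756). Here the same library counts in the other sense, since without it the log2 change was 0.48 (edgeR adjusted p = 0.00252), and without replicate 4 of 3 weeks it was 0.33 (edgeR adjusted p = 0.0489). Tnfrsf18, which encodes GITR, fell from 67.9 ± 9.87 to 41.1 ± 4.96 CPM (log2 change −0.72, edgeR adjusted p = 4.8e-05).

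**Figure D2:**
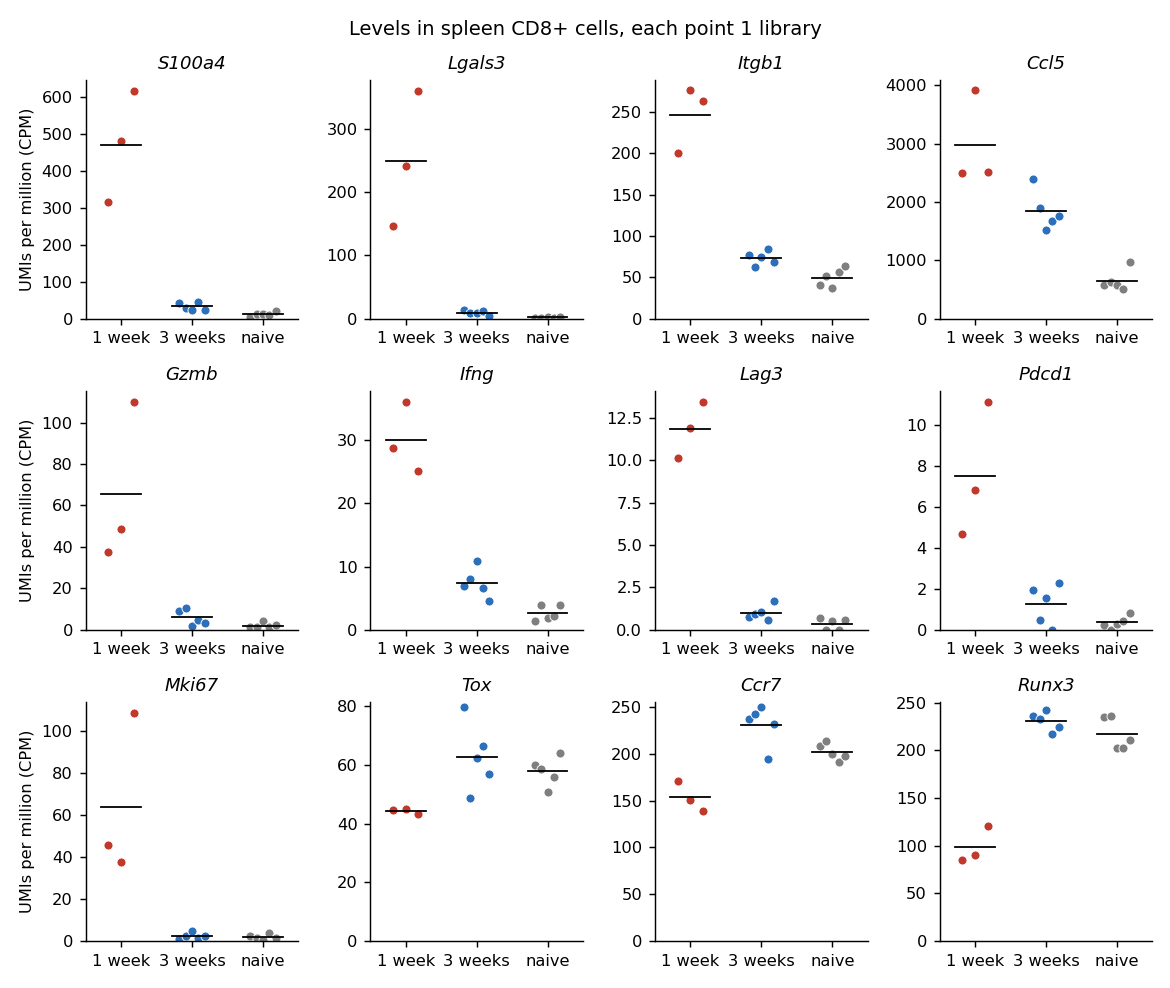
Level in every spleen library (points; CPM on a linear axis from 0) of 12 genes at 1 week (3 libraries) and 3 weeks (5 libraries), with the mean as a bar and naive B6 spleen CD8+ T cells (5 libraries) beside them. For S100a4, Lgals3, Gzmb, Ifng and Lag3 every 3-week library lies below every 1-week library and the naive mean lies lowest.

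Cell division had the lowest median of the lists tested. Of 18 members, all tested, 14 were lower and none was higher, with a median log2 change of −2.58. Over all genes 15.2% were lower and 33.1% higher. Within cells of 2000 to 4000 UMIs 11 could be tested, of which 5 were lower and 2 higher, with a median of −0.085. In that setting the shares of all genes were 10.2% and 33.8%. Mki67 was among those too low to test there, so that median is not over the same members as −2.58. Mki67, the antigen Ki-67 of cycling cells, had 166, 111 and 605 UMIs at 1 week and 2, 5, 9, 2 and 4 UMIs at 3 weeks, or 45.4, 37.7 and 108 CPM at 1 week and 0.77, 2.36, 4.64, 1.21 and 2.3 CPM at 3 weeks (log2 change −4.88, SE 0.393, edgeR adjusted p = 6.2e-09). Replicate 3 of 1 week held most of the 1-week UMIs, yet each other 1-week library was above all 3-week libraries, and without it the log2 change was −4.22 (edgeR adjusted p = 2.4e-12). Stmn1, which destabilizes microtubules, had 122, 90.8 and 241 CPM at 1 week and 13.9, 22.7, 18.1, 23.6 and 18.4 CPM at 3 weeks (log2 change −3.02, SE 0.238, edgeR adjusted p = 5.8e-09). Birc5, survivin, a subunit of the chromosomal passenger complex, had 171, 87 and 659 UMIs at 1 week and 1, 2, 2, 1 and 2 UMIs at 3 weeks (log2 change −6.32, SE 0.52, edgeR adjusted p = 8.0e-09). The linker histone Hist1h1b, made in S phase, had 168, 173 and 548 CPM at 1 week and 2.31, 6.62, 9.28, 5.44 and 4.02 CPM at 3 weeks (log2 change −5.79, SE 0.384, edgeR adjusted p = 4.7e-10). Without replicate 3 of 1 week the log2 change of Birc5 was −5.51 and that of Hist1h1b −4.97. Within cells of 2000 to 4000 UMIs that of Birc5 was −7.65 (edgeR adjusted p = 9.2e-07), that of Hist1h1b −2.29 and that of Stmn1 −1.62. Hist1h2ap (−3.31, or −1.93 without replicate 3 of 1 week) and Hist1h1e (−1.94) were lower too, and as members of a family of near-identical genes their counts may be split between copies. Genes of the list that did not pass were Tubb5 (0.19), Tuba1b (0.20), Mcm3 (−0.20) and Mcm6 (−0.11), which resting cells also transcribe.

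The promoters of cell cycle genes are known for CCAAT boxes, which NF-Y binds, and for the cell cycle homology region (TTTGAA on either strand). To show what these letters look like in the genes that fell, the 250 bases before the RefSeq start are printed for 3 of them (GRCm38.p6, strand of the gene, 5′ to 3′), with CCAAT and its reverse complement ATTGG in capitals. Cdk1, Ccnb2 and Top2a were chosen after their values were seen, for the kinase of mitosis, its cyclin and the topoisomerase that untangles sister chromatids.
Cdk1, chr10:69352913-69353162, minus strand: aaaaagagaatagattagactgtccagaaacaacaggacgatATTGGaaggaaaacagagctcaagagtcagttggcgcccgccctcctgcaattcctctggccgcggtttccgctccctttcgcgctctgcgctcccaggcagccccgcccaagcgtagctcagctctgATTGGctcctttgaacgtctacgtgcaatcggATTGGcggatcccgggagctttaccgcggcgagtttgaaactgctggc
Ccnb2, chr9:70421555-70421804, minus strand: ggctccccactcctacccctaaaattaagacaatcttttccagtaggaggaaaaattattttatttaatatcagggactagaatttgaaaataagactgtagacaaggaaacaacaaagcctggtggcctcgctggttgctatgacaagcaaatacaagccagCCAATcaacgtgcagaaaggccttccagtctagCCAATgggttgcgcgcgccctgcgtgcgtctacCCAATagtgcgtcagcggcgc
Top2a, chr11:99024190-99024439, minus strand: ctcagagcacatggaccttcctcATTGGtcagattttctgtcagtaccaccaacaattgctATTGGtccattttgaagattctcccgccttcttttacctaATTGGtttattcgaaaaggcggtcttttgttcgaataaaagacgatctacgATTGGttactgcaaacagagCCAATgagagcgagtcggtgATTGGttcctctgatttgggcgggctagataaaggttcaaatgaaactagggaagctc

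In these windows Cdk1 held 3 such boxes, Ccnb2 3 and Top2a 6. Cdk1 had 34, 30 and 187 UMIs at 1 week and 0, 0, 1, 1 and 0 UMIs at 3 weeks, 251 against 2 in all, a ratio per UMI sequenced of 104 (95% exact interval from counting alone 28.4 to 859). Ccnb2 had 53, 35 and 231 UMIs at 1 week and 1, 1, 1, 0 and 0 UMIs at 3 weeks, 319 against 3, a ratio of 87.7 (29.7 to 428). Without replicate 3 of 1 week, which held most of these UMIs, the ratios were 48.8 (13 to 411) for Cdk1 and 44.7 (14.8 to 221) for Ccnb2. Top2a had 201, 104 and 634 UMIs at 1 week and 26, 17, 14, 12 and 11 UMIs at 3 weeks (log2 change −3.14, SE 0.297, edgeR adjusted p = 4.0e-08), and its log2 change was −2.52 without replicate 3 of 1 week and −1.20 within cells of 2000 to 4000 UMIs. Of the 14 members that fell, 11 had a promoter in the table, of which 9 held at least 1 CCAAT or ATTGG and 7 held 2 or more. Over the 7150 matched promoters of the genes tested the shares were 36.9% and 14.5%, and over all 27025 promoters read (1 per gene, without chromosome 18) they were 34.5% and 10.5%. The letters are not particular to the members that fell, as 3 of the 4 that did not pass also held 2 or more. TTTGAA or TTCAAA was found in 5 of the 11, in 0 of the 4 that did not pass, in 10.5% of promoters of the genes tested and in 16.3% of all promoters read. Both strands were searched, overlapping matches were each counted, and a match is a description of the sequence only.

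The comparison was repeated in cells with no UMI of Mki67, Top2a, Pclaf, Birc5, Stmn1 or Hist1h1b, an alternative chosen after seeing the data, where 46.4% of 8682 genes passed. In those cells S100a4 changed by −3.23, Lgals3 by −4.32 and Lag3 by −3.19 on the log2 scale, and each passed the test. Gzmb changed by −1.74 instead of −3.40. For Hist1h2ap the change was −0.02, and of the 9 cell division genes still tested 1 was lower and 3 were higher. Cells with division transcripts had been left out by the choice, so the loss of the fall in division genes follows from it and is not a result.

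The genes that rose most had another character. Under the rule for named genes (adjusted p under 0.05, at least 50 CPM on average, no overlap between groups, largest fold) they were Zbtb20, Plcxd2, Mau2, Kmt2d, Vps37b, Chd3, Mdn1, Hsph1, AC149090.1, Golga4, Herc2 and Brwd1, and their log2 changes lay between 1.31 and 1.47. Zbtb20 (chr16:42875881-43642602), a zinc-finger repressor, was at 59.1, 59.5 and 46.5 CPM at 1 week and 145, 140.4, 167, 137 and 169 CPM at 3 weeks (log2 change 1.47, SE 0.11, edgeR adjusted p = 2.9e-09). All 5 libraries of 3 weeks were higher than those of 1 week by a similar amount. Kmt2d, a histone H3 lysine 4 methyltransferase, was at 30.6, 35.7 and 28.6 CPM at 1 week and 77, 71.8, 93.9, 97.9 and 84.4 CPM at 3 weeks (log2 change 1.43, SE 0.121, edgeR adjusted p = 1.0e-08), and Chd3, an ATPase of the NuRD remodelling complex, at 123, 109.8 and 119.5 CPM at 1 week and 333, 269, 388, 282 and 267 CPM at 3 weeks (log2 change 1.39, SE 0.114, edgeR adjusted p = 7.7e-09). Mau2 loads cohesin, Mdn1 is the AAA ATPase of ribosome maturation, Golga4 tethers vesicles at the Golgi apparatus, Herc2 is a ubiquitin ligase, and Vps37b is a subunit of ESCRT-I. Vps37b had 81.1 ± 11.9 CPM at 1 week and 216 ± 22.9 CPM at 3 weeks (log2 change 1.42, SE 0.109, edgeR adjusted p = 4.3e-09), and its naive level (91.5 ± 6.23 CPM) was nearer to that of 1 week.

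The change in level went with the length of the introns. The 12 genes with the largest rise had a median of 34.3 kb of intron, the 12 with the largest fall 4.88 kb, and all genes tested 18.1 kb. When genes were put in 10 groups of 893 by intron length, the median log2 change was −0.06 in the shortest group (median 0.36 kb) and −0.07 in the next (2.88 kb), and it went up to 0.44 (71.7 kb) and 0.51 (144 kb) in the longest. Of the longest group 510 genes were higher and 41 lower, and of the shortest 200 and 272. The Malat1 and mitochondrial shares given above differed between the times in the same libraries, and their part in the rise was not tested. With the median shift of each length group taken out of each library, 39.1% of genes passed, 1619 higher (18%) and 1896 lower (21.1%), and the 12 genes still rose by 0.81 to 1.41.

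**Figure D3:**
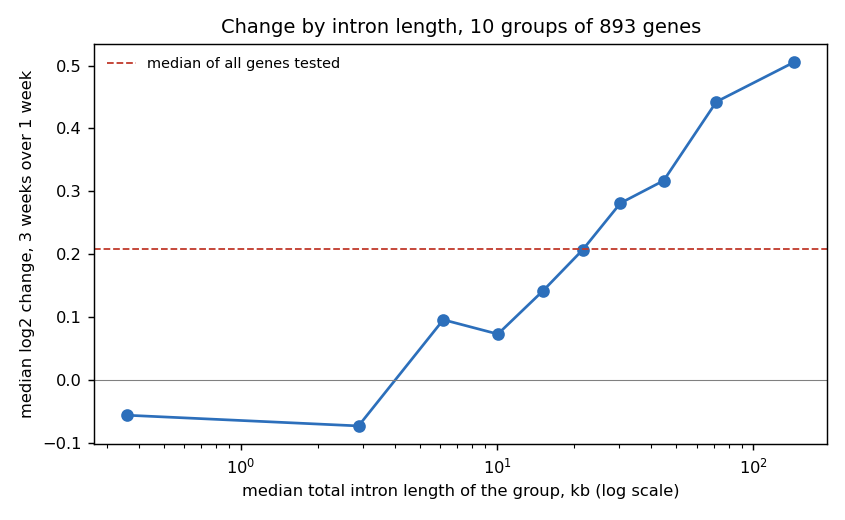
Median log2 change from 1 week to 3 weeks in spleen (y axis) of 10 groups of 893 genes ordered by total intron length (x axis, group median in kb, log scale), with 1 point per group and a dashed line at the median of all genes tested (0.21). The group median is −0.06 and −0.07 in the groups with the shortest introns and 0.51 in the group with the longest.

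Genes of naive and recirculating cells were higher at 3 weeks, by less. Of 15 members 13 were higher and 1 lower (33.1% and 15.2% of all genes), and the median log2 change was 0.59. With TMM factors the counts were 9 and 1 (20.3% and 23% of all genes), and with intron length taken out 7 and 2 (18% and 21.1%). Ccr7, the receptor that guides T cells to lymph nodes and the T cell zone, was at 171, 151 and 139.6 CPM at 1 week and 237, 242, 250.1, 195 and 232 CPM at 3 weeks (log2 change 0.59, SE 0.0953, edgeR adjusted p = 3.0e-05). Foxp1, a factor of quiescence, rose from 252 ± 42.8 to 445 ± 31.9 CPM (log2 change 0.82, edgeR adjusted p = 1.1e-06), the cytoskeletal Actn1 from 96.5 ± 3.02 to 179 ± 18.3 CPM (log2 change 0.90, edgeR adjusted p = 1.7e-07), and the kinase Txk from 261 ± 29.3 to 449 ± 50.8 CPM (log2 change 0.78, edgeR adjusted p = 1.9e-06).

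Lef1 and Tcf7 moved little. Lef1 was at 383, 335 and 295 CPM at 1 week and 409, 447, 446, 466 and 446 CPM at 3 weeks (log2 change 0.39, SE 0.0884, edgeR adjusted p = 9.7e-04) and Tcf7 at 359.7, 369.9 and 349 CPM at 1 week and 421, 448, 447, 419.9 and 438 CPM at 3 weeks (log2 change 0.27, SE 0.0761, edgeR adjusted p = 0.00512). These rises are close to the median of all genes. With TMM factors they were 0.20 (edgeR adjusted p = 0.1) and 0.08 (edgeR adjusted p = 0.412), and with intron length taken out they were −0.11 (edgeR adjusted p = 0.38) and 0.02 (edgeR adjusted p = 0.894). Klf2, a factor that drives exit from lymphoid tissue, was the member that fell, at 1081, 961 and 836 CPM at 1 week and 822, 603, 506, 616 and 620.3 CPM at 3 weeks (log2 change −0.60, SE 0.112, edgeR adjusted p = 1.6e-04). Dapl1 (log2 change 0.22, edgeR adjusted p = 0.12) did not pass. Of 8 quiescence genes 3 were higher, Btg1 (log2 change 0.82, edgeR adjusted p = 9.8e-07), Klf3 and Pdcd4, and none was lower, with a median of 0.20 against 0.21 in all genes. That share is near the 33.1% of all genes, and with TMM factors 3 were higher and 2 lower.

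Most components of T cell receptor signalling were higher and 2 chains of CD3 were lower. Of 19 members 14 were higher and 2 lower, against 33.1% and 15.2% of all genes. With TMM factors 9 were higher and 4 lower, against 20.3% and 23%. Cd3g fell from 821 ± 112 to 399.5 ± 19.6 CPM (log2 change −1.04, SE 0.0866, edgeR adjusted p = 9.2e-09) and Cd3d from 1160.04 ± 70.1 to 843 ± 56.8 CPM (log2 change −0.46, edgeR adjusted p = 5.1e-05), whereas Cd3e rose from 289 ± 22.6 to 418 ± 44.7 CPM (log2 change 0.54, SE 0.0942, edgeR adjusted p = 8.1e-05). The chains belong to 1 complex, so their RNA changed unequally. The phosphatase Ptprc (CD45, the antigen of the sort) rose from 814 ± 35 to 1276 ± 39.6 CPM (log2 change 0.65, edgeR adjusted p = 4.2e-07), and the scavenger-type receptor Cd6 (log2 change 0.67, edgeR adjusted p = 2.8e-06) rose as well. Trac, the constant region of the T cell receptor alpha chain, did not pass (log2 change 0.16, edgeR adjusted p = 0.0962), and Cd28 did not (log2 change −0.13, edgeR adjusted p = 0.215).

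Genes of tissue residence and homing split in 2 directions. Of 10 tested members (11 listed) 5 were higher and 2 lower, against 33.1% and 15.2% of all genes, and 4 and 2 with TMM factors. Within cells of 2000 to 4000 UMIs 7 of 8 were higher and none lower, against 33.8% and 10.2% of the genes tested there. Runx3 (chr4:135120652-135177990), the factor that sets the CD8 lineage and tissue residence, was at 84.8, 90.1 and 120.2 CPM at 1 week and 237, 233, 243, 217 and 225 CPM at 3 weeks (log2 change 1.22, SE 0.105, edgeR adjusted p = 1.1e-08), with no overlap. Ccr9 (chr9:123678439-123784330), the receptor for the gut chemokine CCL25, was at 39.7, 23.5 and 23.8 CPM at 1 week and 94.7, 64.3, 86.1, 42.3 and 61.4 CPM at 3 weeks (log2 change 1.30, SE 0.198, edgeR adjusted p = 1.6e-05). Itgae, which encodes CD103, rose from 17.2 ± 3.43 to 30.7 ± 3.65 CPM (log2 change 0.87, edgeR adjusted p = 1.1e-04). Itga4, the alpha chain that pairs with Itgb1 in VLA-4, fell from 334 ± 56 to 224 ± 13.4 CPM (log2 change −0.58, edgeR adjusted p = 4.7e-05), and Itga1 from 7.04 ± 0.677 to 3.43 ± 0.928 CPM (log2 change −0.99, edgeR adjusted p = 0.0059). Within cells of 2000 to 4000 UMIs the change of Itga4 was 0.21 (edgeR adjusted p = 0.333), and Itga1 was too low to test. Cxcr6 (log2 change 0.11, edgeR adjusted p = 0.603) and Prdm1 (log2 change 0.25, edgeR adjusted p = 0.595) did not pass. In naive spleen Runx3 had 217 ± 16.6 CPM, Ccr9 133 ± 33.2 CPM and Itgae 27.9 ± 4.48 CPM, and the 3-week means of Runx3 and Itgae lay within 1 SD of the naive mean.

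Survival and cytokine genes rose in part. Of 12 tested members of the cytokine feedback list (13 listed) 6 were higher and none lower, against 33.1% and 15.2% of all genes. With TMM factors 4 were higher and 1 lower, and with intron length taken out 5 and 1. Bcl2, which protects from apoptosis, was at 247, 269.6 and 310.2 CPM at 1 week and 576, 488, 496, 475 and 511 CPM at 3 weeks (log2 change 0.88, SE 0.0919, edgeR adjusted p = 1.4e-07), above both 1 week and naive spleen (315 ± 44 CPM). Stat5b, the signal transducer of interleukin-2 and interleukin-7, rose from 31.1 ± 1.02 to 55 ± 5.95 CPM (log2 change 0.81, edgeR adjusted p = 9.0e-06), and Il4ra from 34.2 ± 2.99 to 58 ± 6.94 CPM (log2 change 0.77, edgeR adjusted p = 2.1e-05). Cish (log2 change −0.12, edgeR adjusted p = 0.753) and Socs1 (log2 change −0.01, edgeR adjusted p = 0.98), feedback genes of cytokine signalling, did not pass. Pim1 and Pim2, kinases of the same list, were among the 6 that were higher and are named after their values were seen. Of 8 heat shock genes tested (10 listed) 6 were higher, and 3 with TMM factors, against 33.1% and 20.3% of all genes. Hsph1 was at 22.7, 22.4 and 39.5 CPM at 1 week and 102, 69.9, 108, 47.7 and 40.7 CPM at 3 weeks (log2 change 1.36, SE 0.242, edgeR adjusted p = 9.1e-05), with Hspe1 and Dnajb1 behind it at 0.50 and 0.61.

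Immediate early genes, which answer stimulation and also handling of the tissue within minutes, were mixed. Of 20 tested (22 listed) 5 were lower and 3 higher, against 15.2% and 33.1% of all genes. With TMM factors 9 were lower and 2 higher, against 23% and 20.3%. Fosb was at 254, 256 and 70.1 CPM at 1 week and 69.6, 109, 71.2, 40.5 and 45.3 CPM at 3 weeks (log2 change −1.48, SE 0.29, edgeR adjusted p = 2.5e-04), and Jund fell from 868 ± 199 to 541 ± 37.4 CPM (log2 change −0.68, edgeR adjusted p = 2.4e-05), as did Zfp36, which destabilizes cytokine mRNA (log2 change −0.75, edgeR adjusted p = 2.2e-05). Tnfaip3, the brake A20 on NF-kappaB, rose from 87.5 ± 4.98 to 145 ± 25 CPM (log2 change 0.73, edgeR adjusted p = 2.3e-05), and Zfp36l2 and Rgs2 rose by 0.35 and 0.54. Jun (log2 change −0.42, edgeR adjusted p = 0.074), Cd69 (log2 change 0.29, edgeR adjusted p = 0.101) and Nr4a1 (log2 change 0.01, edgeR adjusted p = 0.988) did not pass, although Jun was lower without replicate 3 of 1 week (−0.75, edgeR adjusted p = 4.6e-06).

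Interferon-stimulated genes did not move as a group. Of 32 tested (36 listed) 10 were higher and 4 lower, close to the shares of all genes (33.1% and 15.2%), the median was 0.22, and with TMM factors the split turned to 4 higher and 9 lower. Ifi203 and Slfn8 rose by 0.49 and 0.75. Ly6a, which encodes Sca-1 and has close paralogs, fell from 88.9 ± 25.2 to 39.8 ± 14 CPM (log2 change −1.20, edgeR adjusted p = 2.1e-05), and Zbp1 and Bst2 by −0.55 and −0.38. The classic targets Isg15 (log2 change −0.23, edgeR adjusted p = 0.409), Ifit1 (log2 change −0.50, edgeR adjusted p = 0.123) and Ifit3 (log2 change −0.65, edgeR adjusted p = 0.0897) did not pass.

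Most listed genes of antigen presentation by MHC class I had lower RNA levels at 3 weeks. Of 14 members 9 were lower and 3 higher, against 15.2% and 33.1% of all genes. With intron length taken out 7 were lower and 3 higher, against 21.1% and 18%. Psmb9 and Psmb8, the immunoproteasome subunits induced by interferon-gamma, were at 222, 223 and 199 CPM at 1 week and 114, 88.4, 100.1, 106 and 106 CPM at 3 weeks (log2 change −1.06, SE 0.0905, edgeR adjusted p = 1.1e-08) and 849.9, 896 and 867 CPM at 1 week and 505, 469.7, 459, 527 and 501 CPM at 3 weeks (log2 change −0.82, SE 0.0751, edgeR adjusted p = 2.4e-08). The 1-week libraries were all above the 3-week libraries for both. H2-T23, which encodes the nonclassical ligand Qa-1, fell from 163 ± 8.72 to 60.4 ± 18.2 CPM (log2 change −1.41, SE 0.14, edgeR adjusted p = 7.9e-08), and its reads may be split with near-identical class I genes. The activator of class I genes, Nlrc5, rose from 32.6 ± 1.52 to 55.9 ± 6.44 CPM (log2 change 0.78, edgeR adjusted p = 1.3e-05), and Tapbp and Tap1 rose by 0.62 and 0.35. H2-K1 did not pass (log2 change −0.04, edgeR adjusted p = 0.735). Within cells of 2000 to 4000 UMIs 6 of 14 were lower and 3 higher, against 10.2% and 33.8% of the genes tested there. Of 8 GIMAP GTPases, a gene cluster of lymphocyte survival, 4 were lower (among them Gimap1, Gimap7 and Gimap4, by −0.48, −0.53 and −0.38) and 2 higher (Gimap6 and Gimap3, by 0.46 and 0.37). Within that depth 1 of them was lower and 2 were higher.

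Metabolic and biosynthetic lists were mixed. Over all genes 15.2% were lower and 33.1% higher. With TMM factors the shares were 23% and 20.3%, and within cells of 2000 to 4000 UMIs 10.2% and 33.8%. Of 11 glycolysis genes tested (12 listed) 4 were lower and 1 higher, with Pgam1 at −0.52, Aldoa at −0.29 and Gapdh at −0.31 against Gpi1 at 0.26, while Ldha (log2 change −0.07, edgeR adjusted p = 0.523) did not pass, and within cells of 2000 to 4000 UMIs 1 of 10 was lower and none higher. Of 82 tested nuclear genes of oxidative phosphorylation 29 were lower and 14 higher, and 46 and 3 with TMM factors. For the 13 mitochondrially encoded genes 10 were lower and 1 higher, beside the lower mitochondrial share given above. Among 16 targets of Myc and ribosome biogenesis 6 were lower, with Ran (log2 change −0.57, edgeR adjusted p = 1.2e-05), Eif5a (log2 change −0.53, edgeR adjusted p = 1.6e-05) and Npm1 (log2 change −0.35, edgeR adjusted p = 7.0e-04) first, and 3 were higher, with Mybbp1a (log2 change 0.79, edgeR adjusted p = 2.7e-05), Nop56 (0.49) and Nolc1 (0.53), and Myc itself did not pass (log2 change −0.09, edgeR adjusted p = 0.646). Of 77 ribosomal protein genes tested 36 were higher and 23 lower, turning to 22 and 26 with TMM factors, and their summed share was 34.6% to 36.2% of UMIs at 1 week and 37.0% to 38.7% at 3 weeks.

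CD8+ T cells of naive B6 spleen, selected by the same rule (4248 of 4681 cells in 5 libraries), gave a reference for these levels, without a test. Of the 4340 genes past the threshold, 3893 (89.7%) were nearer to the naive mean at 3 weeks than at 1 week on the scale of log2(CPM + 1). It was so for all of the genes that passed in the lists of cell division (14 of 14), memory and effector function (21 of 21), cytotoxicity (8 of 8) and inhibitory receptors (7 of 7). Gzmb had 2.05 ± 1.31 CPM in naive spleen, Ifng 2.68 ± 1.18 CPM and Lag3 0.362 ± 0.337 CPM, each below the 3-week mean. Itgb1 had 49.7 ± 11 CPM, S100a4 12 ± 5.66 CPM and Ccl5 652 ± 186 CPM, again below 3 weeks. The exceptions included Bcl2, Pim1 and Bcl2l11 among the 6 cytokine feedback genes and Tnfaip3, Zfp36l2 and Rgs2 among the 8 immediate early genes, which were farther from naive at 3 weeks and are named after their values were seen. The naive libraries also lay nearer to those of 3 weeks in depth and composition, with a median cell of 3709 to 4974 UMIs, 1.96% to 2.43% of UMIs on Malat1 and 3.65% to 4.64% on mitochondrial genes, and the part of that likeness was not tested.

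Sums do not tell how many cells carry a transcript, so the share of cells with a UMI was taken for 12 genes after each cell had been thinned to 1000 UMIs. This left out 25 cells of 1 week and 4 of 3 weeks that were shallower. With 3 against 5 libraries the exact two-sided permutation test cannot give less than p = 0.0357, and after adjustment over the 12 genes none passed, the smallest adjusted p being 0.107. Cells with a Ccl5 UMI were 23.9%, 37.4% and 36.2% at 1 week and 26.5%, 20.4%, 22.4%, 20.5% and 23.9% at 3 weeks (exact permutation test, p = 0.107), and the groups overlapped through replicate 1 of 1 week. Cells with a Gzmb UMI were 3.23% ± 1.44 at 1 week and 0.639% ± 0.616 at 3 weeks (SD; exact permutation test, p = 0.0714). The groups did not overlap for Pdcd1 (0.662% ± 0.152 at 1 week and 0.16% ± 0.159 at 3 weeks), Mki67 (2.36% ± 1.64 at 1 week and 0.245% ± 0.225 at 3 weeks), Tcf7 (28.4% ± 0.889 at 1 week and 35.1% ± 2.59 at 3 weeks) and Ccr7 (13.7% ± 2.12 at 1 week and 20.9% ± 2.71 at 3 weeks), each at the smallest p of the exact permutation test.

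Background was read in 27903 B cells of the naive spleen CD45+ matrix (median 2706 UMIs), thinned alike. It was 1.06% for Ccl5, 0% for Pdcd1 and 0.0538% for Gzmb, against 0.71% for Mki67 and 10.5% for Ccr7, which B cells express themselves. The Fgl2 share was 0.512% ± 0.17 at 1 week and 0.362% ± 0.254 at 3 weeks, against 0.211% in B cells. For Lef1 it was 28.8% ± 2.77 at 1 week and 35.1% ± 3.3 at 3 weeks and for Tox 3.98% ± 0.66 at 1 week and 6.38% ± 1.41 at 3 weeks, and in both the groups overlapped. Ly6c2 (27.7% ± 5.55 at 1 week and 25.2% ± 2.26 at 3 weeks) and Il2rb (11.9% ± 3.08 at 1 week and 13.5% ± 1.66 at 3 weeks) differed by less than the libraries of 1 week differed among themselves. Without thinning the mean Tox share was 10.9% at 1 week and 21.6% in the deeper cells of 3 weeks.

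**Figure D4:**
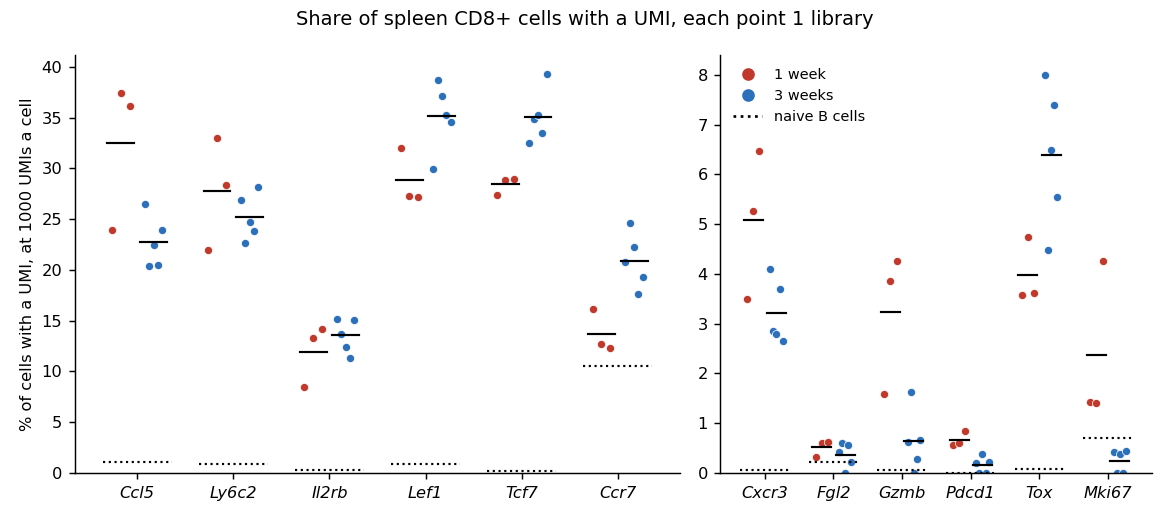
Percent of kept cells with at least 1 UMI after thinning to 1000 UMIs per cell (y axis) for 12 genes, 1 point per spleen library at 1 week (3) and 3 weeks (5), with the mean as a bar and the share in naive B cells as a dotted line. The groups do not overlap for Pdcd1, Mki67, Tcf7 and Ccr7 and overlap for the other 8 genes.

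The fall of S100a4, Lgals3, S100a6 and Itgb1 was seen in cells with and in cells without a Ccl5 UMI. In cells with no Ccl5 UMI (8130 genes tested, 44.3% past the threshold, 2642 higher and 962 lower) S100a4 changed by −4.39, Lgals3 by −5.94, S100a6 by −4.65 and Itgb1 by −2.26 on the log2 scale. In cells with a Ccl5 UMI (6649 genes tested, 41.5% past the threshold, 1648 higher and 1110 lower), a choice made after seeing the data, the changes were −3.39, −4.09, −1.87 and −1.29. Each of these 8 changes passed the test, and the difference between the cell classes was not tested. Within Ccl5+ cells Gzmb changed by −2.96 and Ifng by −1.37. In cells without Ccl5 Ifng changed by −4.62 (edgeR adjusted p = 3.3e-07) and Gzmb was too low to test.

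For 3 genes the cell classes went apart in sign or call. Ly6c2 was lower without Ccl5 (−0.36, edgeR adjusted p = 0.0108) and higher with it (0.33, edgeR adjusted p = 0.0142). Il2rb changed by 0.00 without Ccl5 and by 0.68 with it (edgeR adjusted p = 1.4e-05). Ccr9 rose by 1.21 without Ccl5, and its change of 0.34 with Ccl5 did not pass (edgeR adjusted p = 0.454). The difference between the classes was not tested for these genes either. A cell without a Ccl5 UMI may still express Ccl5, so these classes are ranges and not cell types. Cells were shallower at 1 week, so Ccl5 may be missed more often there than at 3 weeks. The part of this in the changes of either class was not tested.

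The study asked whether CD8+ T cells change within the graft, so the same comparison was made there. In the kidney the rule kept 11542 cells at 1 week and 18304 at 3 weeks. The change in spleen minus the change in kidney was tested as an interaction in edgeR over 11432 genes, of which 3050 (26.7%) passed, 8.65% higher and 18% lower in spleen, and it was read for 14 genes, of which 12 passed. Whether the spleen and kidney tags come from the same mice is not stated, and the median kidney change was 0.42, so kidney values are relative to another shift. The median interaction over all genes was −0.19.

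Gzmb, Ifng, Pdcd1 and Lag3 fell in spleen, and their change in the graft differed from it. Gzmb in kidney was at 762 ± 75.1 CPM at 1 week and 868 ± 121 CPM at 3 weeks (log2 change 0.19, edgeR adjusted p = 0.133), and the spleen change was lower than the kidney change by far (log2 difference −3.60, SE 0.40, edgeR adjusted p = 5.8e-07). Ifng in kidney was at 169 ± 23 CPM at 1 week and 195 ± 17.2 CPM at 3 weeks (0.21, edgeR adjusted p = 0.0733), with a difference of −2.18 to spleen (edgeR adjusted p = 1.6e-07). For both genes the graft had more than the spleen at each time, and its own change did not pass. Pdcd1 rose in kidney by 0.91 on the log2 scale, with 272 ± 24 CPM at 1 week and 512 ± 94 CPM at 3 weeks, and it fell in spleen (log2 difference −3.52, SE 0.478, edgeR adjusted p = 9.4e-06). Lag3 in kidney had 81.5 ± 14.9 CPM at 1 week and 135 ± 27.1 CPM at 3 weeks (log2 difference −4.30, SE 0.427, edgeR adjusted p = 9.7e-08).

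Fgl2 and Il2rb of the regulatory list rose in the graft. Fgl2 in kidney was at 77.5 ± 20.3 CPM at 1 week and 387 ± 37.2 CPM at 3 weeks (log2 change 2.33), whereas it fell in spleen (log2 difference −3.76, SE 0.472, edgeR adjusted p = 3.1e-06). Il2rb rose in kidney by 1.21, at 298 ± 15 CPM at 1 week and 687 ± 75.5 CPM at 3 weeks (log2 difference −0.92, SE 0.178, edgeR adjusted p = 4.8e-04). Ccl5 rose in kidney by 1.38 and Cxcr3, near the kidney median of 0.42, by 0.39, and the interactions were −2.07 (edgeR adjusted p = 2.0e-04) and −1.20 (edgeR adjusted p = 3.6e-05). The kidney libraries of 1 week varied widely in Ccl5, from 1619.5 to 7528 CPM (4852 ± 2993 CPM), against 12641.5 ± 843 CPM at 3 weeks.

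Ccr7, Tcf7 and Lef1 of the naive list fell in the graft, while in spleen Ccr7 rose and Tcf7 and Lef1 moved little. Ccr7 in kidney was at 49.2 ± 17.6 CPM at 1 week and 4.76 ± 1.75 CPM at 3 weeks (log2 change −3.38) and the interaction was positive (log2 difference 3.97, SE 0.271, edgeR adjusted p = 1.7e-10). Tcf7 (log2 difference 3.31, SE 0.164, edgeR adjusted p = 3.9e-13) and Lef1 (log2 difference 2.83, SE 0.251, edgeR adjusted p = 1.8e-08) did likewise, with kidney changes of −3.04 and −2.45. Ly6c2 fell in kidney, with 307 ± 64 CPM at 1 week and 59.4 ± 6.75 CPM at 3 weeks, and did not pass in spleen (log2 difference 2.30, SE 0.176, edgeR adjusted p = 1.3e-09). For Mki67, which fell in both tissues (−3.80 in kidney), and for Tox, which rose in both (0.91 in kidney), the difference did not pass (−1.10, edgeR adjusted p = 0.241, and −0.40, edgeR adjusted p = 0.103).

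**Figure D5:**
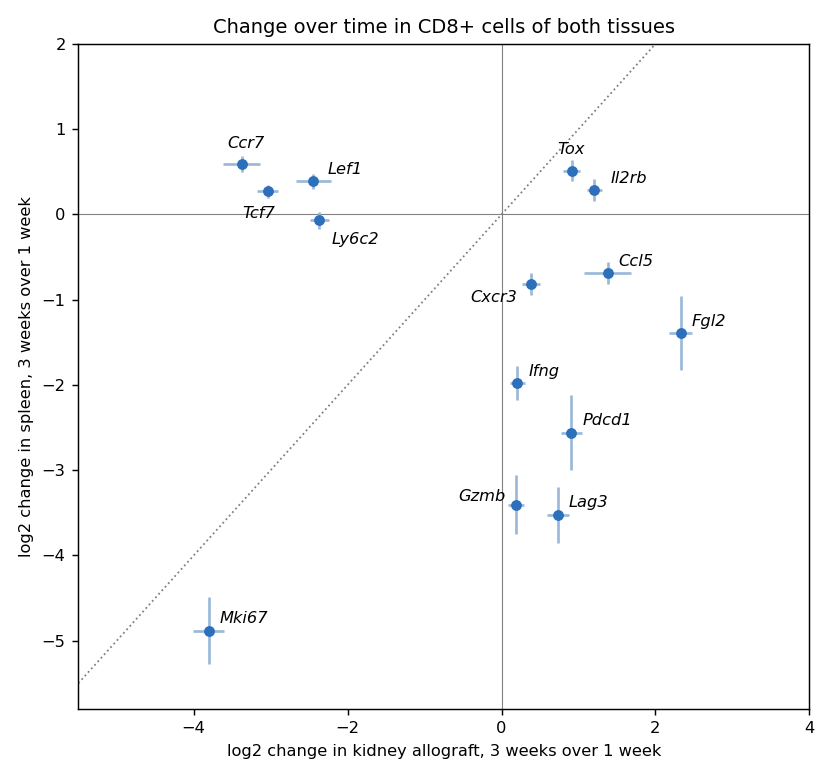
Log2 change from 1 week to 3 weeks in the kidney allograft (x axis) and in spleen (y axis) of 14 genes (points), with bars of 1 SE and a dotted line where both changes are equal. Mki67 lies low in both, Gzmb, Lag3, Pdcd1 and Fgl2 lie at negative spleen values with kidney values from 0.19 to 2.33, and Ccr7, Tcf7 and Lef1 lie at positive spleen values with kidney values from −3.38 to −2.45.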

How the data were processed

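Per the submitters' processing notes the reads were mapped with Cell Ranger to mm10, and the version is not given in the sources used here. The study's methods state that cells were then filtered in Seurat by UMIs, genes and mitochondrial content. The authors deposited UMI counts per gene and cell, which are raw counts and not normalized values. No columns of the authors' own comparisons were used, and doublets were not called here.

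Cells with a Cd8a or Cd8b1 UMI and no Cd4, Cd79a or Lyz2 UMI were summed per library tag over the 16863 genes shared by both spleen files. Each tag was taken as 1 mouse, and p-values measure the spread between tags. Sums were tested with edgeR's quasi-likelihood test (version 4.0.16) on plain library totals after filterByExpr, with Benjamini-Hochberg adjustment and a threshold of 0.05. The study's methods name no test over mice for the sequencing data. Library totals ranged from 1655201 to 5589330 UMIs. In counts simulated for this comparison over 8964 genes, 80.6% of genes changed 1.5-fold and 100% of those changed 2-fold or 4-fold were recovered, with 10 false calls. For the interaction, simulated over 11086 genes, the shares were 37.3%, 92.5% and 100%, with 8 false calls. In each simulation 200 genes of middle level were changed, up and down alike, with totals left nearly as they were. In the data 48.3% of genes passed in spleen, so these shares and false calls hold for the simulated setting only. In the spleen simulation no gene as low as Pdcd1, Lag3 or Fgl2 was changed. Shares of cells were compared by exact permutation over tags (56 splits) with exact binomial intervals at 95%, and intervals cover counting error only. Replicates of a time differed by more than sampling noise, so none was taken as a duplicate.

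The cell rule, the compared groups and all 30 gene lists were chosen with earlier results of these data known, so no count over a list is independent evidence. Genes were named when the study names them for spleen (Gzmb, Ifng, Pdcd1, Lag3, Tox, Fgl2, Il2rb), when they were among the 12 largest or 12 smallest folds past the threshold with at least 50 CPM and no overlap (leaving out genes of mitochondria, ribosomal proteins, immunoglobulins, T cell receptors and the cell rule, and unnamed models), when they were among the 3 smallest adjusted p of a list in each direction, or as list members that did not pass. Some genes that the rule names are not reported here. Exceptions are said to be chosen after their values were seen. Gene positions and intron lengths came from GENCODE M21 (GRCm38, the build of mm10), which matched 16629 of 16863 symbols (98.6%), and promoters from RefSeq (GRCm38.p6).

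The alternatives were TMM factors, DESeq2 (version 1.42.0, an NA kept as NA), no filter on low counts, totals without ribosomal and mitochondrial genes, all cells of the matrices, a stricter cell rule, cells of 2000 to 4000 UMIs, cells with or without Ccl5, cells without division genes, intron length taken out, other thinning, and leaving out each library. Cells with Ccl5 and cells without division genes were added after seeing the data.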

Additional observations from a re-analysis of the deposited data

Results flagged for a closer look

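A library that stands far from the others of its group was looked for in the 5 spleen libraries of 3 weeks, gene by gene and for the measures of each library, by the gap to its nearest neighbour over the whole range. Of 161 such groups 4 stood out, where chance gives about 1 in 20. Bst2, an interferon-stimulated gene, was at 62.9 CPM in replicate 2 of 3 weeks and at 76.1 to 81.5 CPM in the other libraries. Ctla4, an inhibitory receptor that regulatory CD4 T cells also carry, was at 2.30 CPM in replicate 5 of 3 weeks and at 12.7 to 14.4 CPM in the others. Pim1, a kinase induced by cytokines, was at 181.9 CPM in replicate 2 of 3 weeks and at 115 to 134 CPM in the others. The share of matrix cells that met the cell rule was 46.3% in replicate 1 of 3 weeks and 37.5% to 38.4% in the others.

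The change from 1 week to 3 weeks differed between spleen and kidney allograft for 12 of the 14 genes for which the edgeR interaction was read. The log2 change in spleen minus that in kidney was −2.07 for Ccl5, −1.20 for Cxcr3, −0.92 for Il2rb, −3.76 for Fgl2, −3.60 for Gzmb, −3.52 for Pdcd1, −2.18 for Ifng and −4.30 for Lag3. It was positive for Ly6c2 (2.30), Lef1 (2.83), Tcf7 (3.31) and Ccr7 (3.97). Of these genes Il2rb and Ly6c2 did not pass in spleen, and Gzmb and Ifng did not pass in kidney.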

How the results depend on the processing

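The count of genes higher at 3 weeks was 2977 and fell to 1823 with TMM factors, 1387 with DESeq2, 1619 with intron length taken out and 1648 in cells with a Ccl5 UMI, where fewer genes were tested. The count of lower genes was 1363 and became 2066 with TMM factors, 2197 in all cells of the matrices and 723 in cells of 2000 to 4000 UMIs. Leaving out each library in turn gave 2560 to 2873 higher and 1217 to 1378 lower genes. No share passed in those repeats (0 to 0 of 12 genes), where none could, since the smallest p was 0.0952 with 2 against 5 libraries and 0.0571 with 3 against 4, and in all cells of the matrices, with their B and CD4 T cells, 10 of 12 passed. The interaction passed for 12 to 13 of 14 genes when a library was left out. Among named genes that passed in the main fit or in the other setting, some turned their direction, with the cause not tested. Ccl5 changed by 0.068 and Itga4 by 0.21 in cells of 2000 to 4000 UMIs, Ly6c2 by 0.33 in cells with a Ccl5 UMI, Lef1 by −0.11 with intron length taken out, Itga1 by 0.39 in all cells of the matrices, and Tnfrsf4 by 0.12 and Mcm3 by 0.42 in cells without division genes. In cells of 2000 to 4000 UMIs Gzma, Eomes, Lamp1, Btla, Zbp1, Hspe1, Gimap1, Gimap7, Gpi1, Aldoa, Gapdh, Nop56 and Trbc2 kept their direction but no longer passed, and Id2, Cxcr6, Tubb5, Tuba1b, Cd69, Trac and Ly6c2 passed. When a library was left out, no named gene that passed in either fit changed sign, some that passed in neither did (without replicate 3 of 1 week Ifit3 went from −0.65 to 0.054 and Cish from −0.12 to 0.20), and some calls were lost or gained by edgeR's adjusted p. Without replicate 3 of 1 week Fgl2 (−0.90), Gapdh (−0.19) and Lamp1 (0.22) were lost and Il2rb (0.48), Fasl (1.18), Jun (−0.75) and Tubb5 (0.22) were gained. Without replicate 2 of 1 week Aldoa (−0.24), Lamp1 (0.25), Tyrobp (−0.62) and Tnfrsf4 (−0.54) were lost and Ifit3 (−0.92) was gained, and without replicate 1 of 1 week Tap1 (0.26) and Gpi1 (0.23) were lost and Dapl1 (0.35) and Ifit3 (−0.82) were gained. Among the 3-week libraries, leaving out replicate 1 lost Tyrobp (−0.55), Tnfrsf4 (−0.65) and Lamp1 (0.26) and gained Dapl1 (0.30), Tubb5 (0.20) and Cd69 (0.41). Leaving out replicate 2 lost Lamp1 (0.23) and Tnfrsf4 (−0.86) and gained Jun (−0.51), leaving out replicate 4 lost Lamp1 (0.24) and Tnfrsf4 (−0.77) and gained Il2rb (0.33), and leaving out replicate 5 lost Lamp1 (0.26) and Tyrobp (−0.63). No paired analysis was possible because the labels carry no replicate number that links a library of 1 week with one of 3 weeks.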
